A study of Homo sapiens with 6 samples.

Results

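The genes for the subunits of the human proteasome were examined for R-loops in HEK293T cells, an established human embryonic kidney line of wild-type genotype. R-loops are 3-stranded structures in which RNA pairs with one DNA strand and displaces the other. Members were all protein-coding genes of the GENCODE annotation, release 44 placed on GRCh37, whose symbol is PSMA, PSMB, PSMC or PSMD followed by a digit. This gave 40 of 20176 protein-coding genes, of which 39 encode subunits or assembly chaperones. The remaining gene, PSMC3IP, was taken by its name although its product is not a proteasome subunit. It had no peak in either condition.

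R-loops had been mapped by spKAS-seq, which labels unpaired guanines with N3-kethoxal, then enriches the labelled strand and sequences it with its orientation kept. There were 2 untreated samples, 2 samples of cells given 10 μM N2-heptynyl-dG in the medium for 3 h, and 2 inputs. N2-heptynyl-dG is a deoxyguanosine nucleoside with an alkyne-bearing chain on the exocyclic nitrogen. Cells of both conditions then received 5 mM N3-kethoxal for 10 min. The data analysed were 1 peak list per condition, with 10231 untreated and 11085 treated peaks. Following the study's methods, a list was taken as built from both replicates of its condition. Each entry has a position and a strand, with no height and no score. The spread between replicates and the depth are therefore unknown, no test of the treatment was possible, and a peak found in 1 list only may differ little in signal from the other list. RNA levels were not measured in these lists, so the label of the cells could not be checked against marker genes.

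The proteasome degrades proteins that carry chains of ubiquitin. Its core particle stacks rings of alpha subunits, which gate the entrance, on rings of beta subunits, some of which cut peptide bonds. A regulatory particle caps the core: its ATPases unfold the substrate and thread it inward, and its lid removes the ubiquitin. The genes lie on many chromosomes and are expressed in nearly all cells, with NFE2L1 as a known activator when the proteasome is inhibited. R-loops are known to form behind RNA polymerase, most often near gene starts and past gene ends, and the displaced strand is then the one that runs with the gene.

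Over all protein-coding genes, the strand of the peaks followed this geometry downstream of starts. Here a peak was placed by its midpoint and counted once for each start it lay near. Of peaks with their midpoint in the first 1 kb downstream of a start, 2906 ran with the gene and 126 against it untreated. In the treated list 3285 and 153 did so. In the 1 kb upstream of a start most ran against the gene, with 624 sense and 1975 antisense peaks untreated and 677 and 2154 treated. A peak on the strand of the gene is called sense below, and one on the opposite strand antisense. A peak was counted at a start or at an end when it overlapped the 1 kb on either side of the first or last base of the canonical transcript. Distances are in bp along the gene, negative before that base.

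In each list, 22 of the 40 genes (55.0%) had a peak within 2 kb of the gene record. Among all protein-coding genes the shares were 41.7% untreated and 43.8% treated. Both lists had a peak at 20 of the 40 genes, against 36.3% of all genes. PSMA7 and PSMD6 had a peak in the treated list alone, against 7.53% of all genes, and PSMB5 and PSMD7 in the untreated list alone, against 5.42%. The other 16 genes had none: PSMA2, PSMA3, PSMA8, PSMB2, PSMB4, PSMB6, PSMB11, PSMC1, PSMC3, PSMC3IP, PSMC4, PSMC5, PSMD1, PSMD4, PSMD5 and PSMD9. Genes differ in length, and a longer record offers more room for a peak: the member records spanned 1849 to 138762 bp with a median of 15868 bp, below the median of 27194 bp over all coding genes.

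The members that carried peaks had 35 distinct untreated peaks and 33 distinct treated peaks. Of these, 26 (74.3%) and 25 (75.8%) shared 1 bp or more with some peak of the other condition, against 74.8% and 69.5% of all peaks. Peaks on the sense strand numbered 28 of 35 and 25 of 33. The genome strands themselves were used about equally, with 18 plus-strand and 17 minus-strand peaks untreated and 16 and 17 treated. Peaks at starts numbered 17 in each list, and peaks at ends 11 and 10. On the sense strand alone, 11 of the 35 untreated and 11 of the 33 treated peaks were at starts. In the whole lists, 3590 of 10231 and 3993 of 11085 peaks were sense at a coding start. Sense end peaks numbered 11 and 10, against 1966 and 1926 in the whole lists. The whole lists are not limited to peaks near coding genes, while the member peaks all lie within 2 kb of a member. No share over all peaks within 2 kb of coding genes is given. The sense, start and end counts are therefore not read as particular to the members. The plot of peak positions shows the peaks of the members along each gene.

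**Figure D1:**
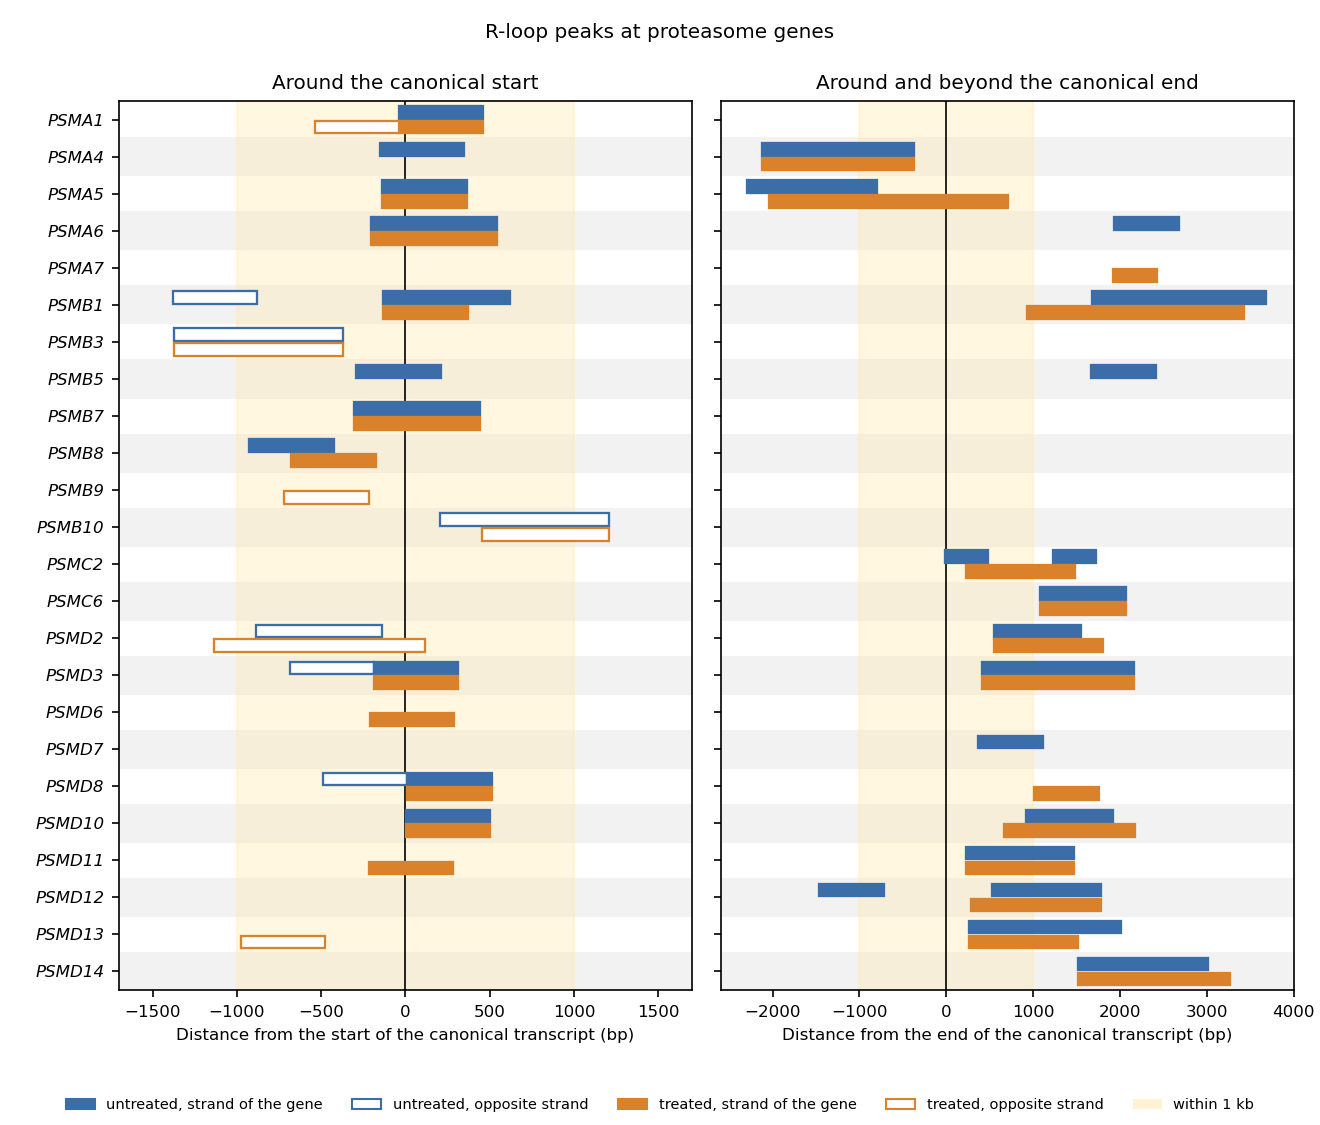
R-loop peaks at the genes for proteasome subunits, drawn by their distance (bp) from the canonical start (left) and end (right), with 1 row for each of the 24 genes that had a peak, blue bars for the untreated and orange bars for the treated list, solid for the sense and open for the antisense strand. Solid bars mostly span the start or begin just after it, PSMB8 lying before it, and most of those on the right lie past the end. Every open bar lies near a start. The PSMA1 peak at the far end of its record, the treated PSMC2 peak at -3268 to -2769 bp and the PSMB8 peaks as seen from PSMB9 are outside the windows.

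Sequence under the start peaks is given for 6 genes, because these carry the differences and the sameness between the lists. PSMD6 and PSMD11 had a start peak in the treated list alone, PSMA4 and PSMB5 in the untreated list alone, and PSMD3 and PSMD8 had peaks with the same borders in both. The stretches are from GRCh37, on the strand of the gene and of the peak, and avoid untranslated exon sequence. Capitals mark runs of 3 or more guanines.
PSMD6 treated only (chr3:64008896-64009095, minus strand): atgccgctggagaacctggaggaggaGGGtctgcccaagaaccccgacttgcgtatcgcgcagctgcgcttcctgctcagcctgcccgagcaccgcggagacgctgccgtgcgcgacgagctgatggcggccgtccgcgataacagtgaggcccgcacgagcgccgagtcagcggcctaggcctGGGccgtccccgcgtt
PSMD11 treated only (chr17:30771542-30771741, plus strand): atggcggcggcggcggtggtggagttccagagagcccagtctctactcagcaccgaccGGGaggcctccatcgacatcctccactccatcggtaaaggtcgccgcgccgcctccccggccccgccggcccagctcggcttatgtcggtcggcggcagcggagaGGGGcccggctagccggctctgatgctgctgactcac
PSMA4 untreated only (chr15:78832882-78833076, plus strand): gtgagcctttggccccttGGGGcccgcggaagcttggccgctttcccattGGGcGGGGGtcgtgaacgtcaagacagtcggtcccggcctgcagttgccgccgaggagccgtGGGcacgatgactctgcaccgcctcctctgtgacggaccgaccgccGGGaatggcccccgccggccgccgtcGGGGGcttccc
PSMB5 untreated only (chr14:23504110-23504309, minus strand): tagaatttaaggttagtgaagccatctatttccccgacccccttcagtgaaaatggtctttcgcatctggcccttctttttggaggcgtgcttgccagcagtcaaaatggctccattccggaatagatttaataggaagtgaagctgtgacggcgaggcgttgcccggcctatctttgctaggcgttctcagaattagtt
PSMD3 both lists (chr17:38136873-38137059, plus strand): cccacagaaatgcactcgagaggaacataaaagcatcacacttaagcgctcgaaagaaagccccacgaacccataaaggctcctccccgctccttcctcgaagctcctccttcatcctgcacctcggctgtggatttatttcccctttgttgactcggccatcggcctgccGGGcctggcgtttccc
PSMD8 both lists (chr19:38865431-38865630, plus strand): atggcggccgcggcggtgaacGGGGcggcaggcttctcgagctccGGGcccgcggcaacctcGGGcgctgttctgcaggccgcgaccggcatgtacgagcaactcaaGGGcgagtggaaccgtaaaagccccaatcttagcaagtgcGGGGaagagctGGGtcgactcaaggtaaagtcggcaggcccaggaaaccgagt

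These stretches held 2 guanine runs in PSMD6 and PSMD11, 6 in PSMA4, 0 in PSMB5, 1 in PSMD3 and 6 in PSMD8. Their GC content was 70.0%, 70.5%, 71.8%, 48.0%, 56.1% and 65.5% in the same order. The values of stretches from peaks in 1 list and from peaks in both overlapped. The PSMB5 and PSMD3 stretches lie before the canonical start and the others after it, so they do not compare whole peaks. The whole PSMD3 peak, for one, was 66.8% GC with 9 guanine runs.

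Sense start peaks were present at 11 of the 40 genes in each list (27.5%, 95% Wilson interval 16.1% to 42.8%), against 18.5% of all protein-coding genes with a canonical transcript in the untreated list and 20.5% in the treated list. The interval covers counting error only, since genes are not replicates of a condition, and it includes both background shares. Counting either list, 13 genes had such a peak (23.9% of all genes). In both lists 9 genes had it, against 3008 of 19894 genes with a canonical transcript. Among peaks of at least 750 bp the order turned: 3 untreated and 2 treated members had a sense start peak, against 9.0% and 10.2% of all genes. Sense start peaks were short: their median was 500 bp in both lists and none was over 750 bp. Among the alpha ring genes, PSMA1, PSMA5 and PSMA6 had a start peak with identical borders in both lists, at -37 to 462, -137 to 362 and -206 to 543 bp. The PSMA1 peak also lay within 1 kb of the start of another, unnamed protein-coding gene on the same strand. PSMB7, whose product is a catalytic beta subunit, had one at -305 to 444 bp in both. PSMB1, a structural beta subunit, had a peak from -130 to 619 bp in the untreated list that ended at 369 bp in the treated list. The lid genes PSMD3 and PSMD8 and the assembly chaperone PSMD10, also known as gankyrin, had identical borders at -187 to 312, 12 to 511 and 3 to 502 bp.

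The 4 sense start peaks found in 1 list only were all 500 bp wide, the narrowest width at these genes. In the untreated list alone, PSMA4, an alpha ring gene, had a peak at chr15:78832633-78833132 (-153 to 346 bp), and PSMB5, which encodes the chymotrypsin-like catalytic subunit, at chr14:23503901-23504400 (-291 to 208 bp). In the treated list alone, the lid genes PSMD6 and PSMD11 had peaks at chr3:64008882-64009381 (-211 to 288 bp) and chr17:30771310-30771809 (-218 to 281 bp). Each list thus held 2 start peaks of its own. Over all genes, sense start peaks were shared with the other list for 81.0% of untreated and 73.2% of treated peaks. The members' start peaks were shared for 9 of 11 in each list.

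Sense end peaks were present at 10 of the 40 genes in each list (25.0%, 95% Wilson interval 14.2% to 40.2%), against 9.84% of all genes in the untreated list and 9.60% in the treated list. They were found at 11 genes in either list (11.6% of all genes). In both lists they were at 9 genes, against 1552 of 19894 genes with a canonical transcript. Among genes whose record was as long as the middle 50% of the members, 7 of 20 members (35%) had a sense end peak in each list, against 14.1% and 13.8% of all such genes. Among genes with any peak of the same list within 2 kb, the shares were 45.5% of members in each list against 23.4% and 21.7%. With the window around the end widened to 2 kb, 15 and 14 members had one, against 14.1% of all genes in each list. With it narrowed to 500 bp, 6 and 7 members had one, against 6.06% and 5.87%. Both windows were planned for counts of peaks, but counting members in them was chosen after seeing the data. No antisense end peak was found at any member in either list, and such peaks were rare throughout, at 1.91% of all genes untreated and 1.99% treated.

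**Figure D2:**
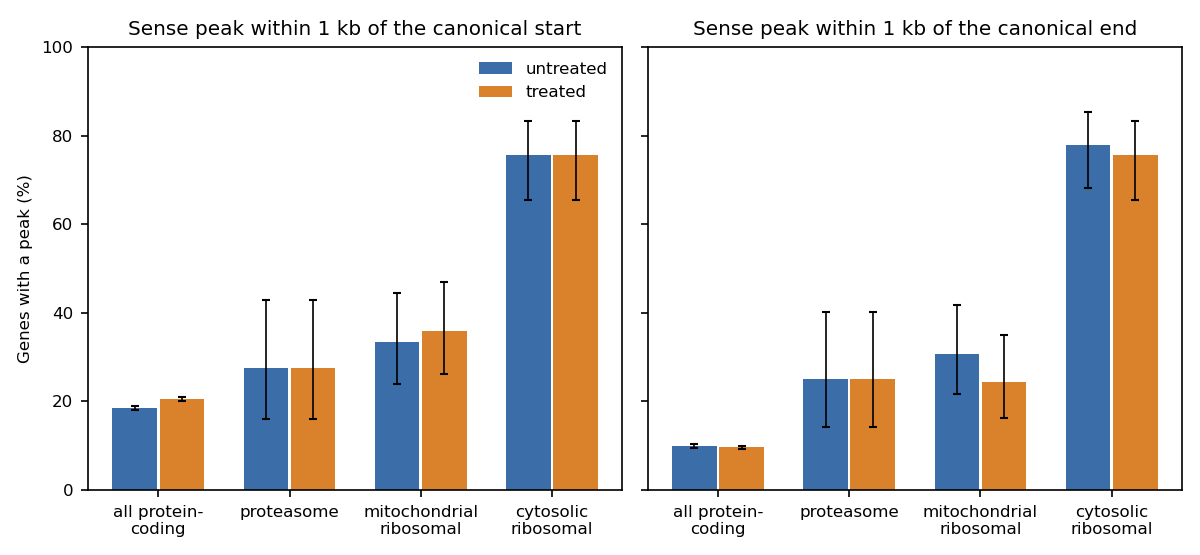
Share of genes (%) with a sense peak within 1 kb of the canonical start (left) or end (right) in the untreated (blue bars) and treated (orange bars) lists, for the 40 members, all protein-coding genes and the genes for cytosolic and mitochondrial ribosomal proteins, with 95% Wilson intervals that cover counting error only. The members are at 25.0% for sense ends in both lists, all genes at 9.84% and 9.60%, and the cytosolic ribosomal genes at 77.9% and 75.6%.

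End peaks were wider than start peaks, with medians of 1250 bp (500 to 1750 bp) in the untreated list and 1500 bp (1250 to 2750 bp) in the treated list. The median over all coding ends was 1250 bp in both. Most lay beyond the last base of the transcript. PSMD3 had 1750 bp at 411 to 2160 bp and PSMD11 had 1250 bp at 223 to 1472 bp, each with the same borders in both lists. PSMD2, which encodes a large non-ATPase base subunit, had 1000 bp at 555 to 1554 bp that reached 1804 bp in the treated list. The PSMD10 peak widened from 918 to 1917 bp to 668 to 2167 bp. PSMD12, a lid gene, had a peak at 530 to 1779 bp untreated that began at 280 bp in the treated list. PSMC2 was the only ATPase gene with an end peak. There, 2 untreated peaks of 500 bp, at -20 to 479 and 1230 to 1729 bp, overlapped a single treated peak of 1250 bp at 230 to 1479 bp.

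A few end peaks lay within the transcript. The PSMA4 end peak, chr15:78842633-78844382, was 1750 bp wide in both lists and lay wholly in exon 9 of 9, in the 3′ untranslated region. The untreated PSMA5 peak of 1500 bp, at -2293 to -794 bp, also lay in the last exon. PSMD12 had a further peak of 750 bp at -1470 to -721 bp, in the 3′ untranslated part of exon 11, in the untreated list alone. PSMD7, a lid gene, had its single peak, 750 bp at 362 to 1111 bp past its end, in the untreated list alone. Of the sense end peaks, 9 of 11 untreated and 10 of 10 treated overlapped the other list, against 83.3% over all coding ends in each.

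Sequence is shown for 1 end peak present in both lists with the same borders and for the end peak of PSMD7, found in the untreated list alone. In each, the 200 bases of the peak with the most guanine runs were taken. Capitals again mark runs of 3 or more guanines, and the strand is that of the gene.
PSMD11 end, both lists (chr17:30810752-30810951, plus strand): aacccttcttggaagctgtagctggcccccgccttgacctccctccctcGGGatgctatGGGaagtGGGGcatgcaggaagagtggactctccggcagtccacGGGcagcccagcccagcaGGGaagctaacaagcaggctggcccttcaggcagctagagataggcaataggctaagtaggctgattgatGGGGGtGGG
PSMD7 end, untreated only (chr16:74340642-74340841, plus strand): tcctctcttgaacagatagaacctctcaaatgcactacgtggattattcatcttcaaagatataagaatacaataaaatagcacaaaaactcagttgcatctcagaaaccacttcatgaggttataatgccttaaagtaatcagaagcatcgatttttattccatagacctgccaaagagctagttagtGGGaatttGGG

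The PSMD11 stretch held 7 guanine runs at 61.0% GC and the PSMD7 stretch 2 runs at 36% GC. Over whole peaks, the sense end peaks of the members had a median GC content of 44.5% (33.8% to 54.7%) untreated and 45.1% (37.5% to 54.7%) treated. Over all coding ends the medians were 51.2% and 52.1%, with lower quartiles of 45.7% and 46.2%. Guanine runs at the member ends had a median of 8.67 and 8.76 per kb, against 16 and 16.5 per kb over all coding ends. At the starts the members were nearer to the rest, with median GC contents of 60.4% and 61.0% against 62.0% and 63.0%, and 24.0 guanine runs per kb in each list against 22.0 and 22.7. Median GC skew, the excess of G over C as a share of both, was between -0.02 and 0.02 at the starts and ends of the members. N3-kethoxal needs guanine, so base composition also bears on how well a strand is labelled, and its part in these peaks was not tested.

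**Figure D3:**
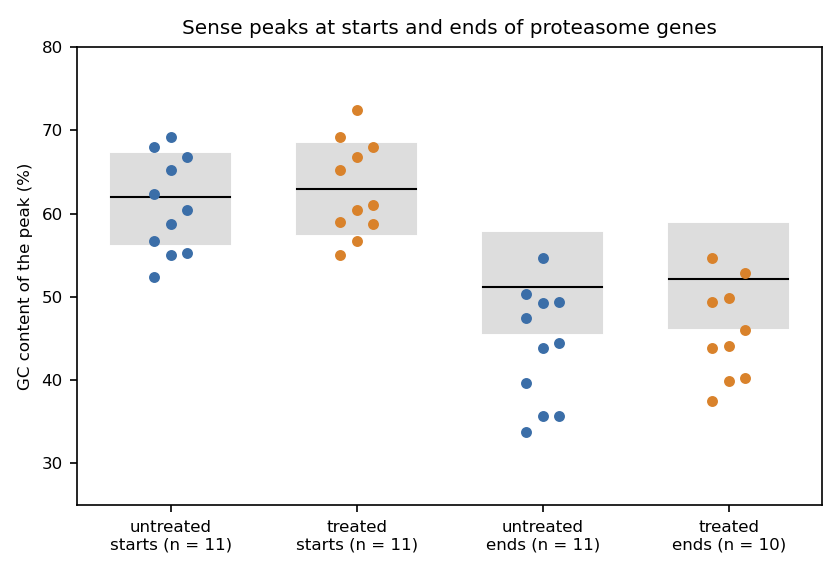
GC content (%) of each sense start and sense end peak at the members (points) over grey boxes that span the quartiles of all sense start or end peaks of protein-coding genes in that list, with a line at their median. The member end peaks run from 33.8% to 54.7% untreated and from 37.5% to 54.7% treated, with medians of 44.5% and 45.1% against 51.2% and 52.1%.

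Antisense start peaks were found at 6 of the 40 genes in each list (15.0%, 95% Wilson interval 7.06% to 29.1%), against 11.1% of all genes in the untreated list and 12.1% in the treated list. Those of PSMB3, PSMB10 and PSMD2 were in both lists. PSMB3 had chr17:36907623-36908622, at -1371 to -372 bp, with the same borders in both. PSMB10, an interferon-inducible catalytic beta subunit, differed from the rest in that its antisense peak lay wholly inside the gene, at 206 to 1205 bp (chr16:67969548-67970547) untreated and 456 to 1205 bp treated. The PSMD2 peak ran from -886 to -137 bp (chr3:184016143-184016892) untreated and from -1136 to 113 bp treated.

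The other antisense start peaks were 500 bp wide and in 1 list only. In the untreated list they were those of PSMB1 (-1380 to -881 bp), PSMD3 (-687 to -188 bp) and PSMD8 (-488 to 11 bp), and in the treated list those of PSMA1 (-537 to -38 bp), PSMB9 (-718 to -219 bp) and PSMD13 (-975 to -476 bp). Several belonged equally to a gene on the other strand. The PSMB1 peak lay at the start of TBP, which encodes the TATA-binding protein, the PSMB9 peak at the start of TAP1, a peptide transporter of antigen presentation, and the PSMD13 peak at the start of SIRT3, a mitochondrial deacetylase. PSMC2 had a treated-only peak farther upstream, at -3268 to -2769 bp, at the start of DNAJC2. The PSMA1 record reaches far upstream of its canonical start, to the start of PDE3B, and took the peak there, which is sense for PDE3B and antisense for PSMA1, 500 bp untreated and 1000 bp treated. The inducible PSMB8 and its neighbour PSMB9 shared a peak, sense for PSMB8 at -926 to -427 bp untreated and at -676 to -177 bp treated.

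Of all protein-coding genes, 50.8% had no peak in either list, 41.7% had an untreated peak and 43.8% a treated peak. A peak in both lists was present at 36.3%. Counting either list, 23.9% had a sense start peak and 11.6% a sense end peak. The members are given by role beside those shares. All 8 lid genes had a peak in some list, 7 in each and 6 in both, with a sense start peak at 4 and a sense end peak at 5. Of the 8 alpha ring genes, 4 had an untreated and 5 a treated peak, and 3 had none in either list. Of the 7 constitutive beta genes, 4 and 3 had one, and 3 had none in either list. Of the 4 inducible or tissue-specific beta genes 3 and 3 had one, PSMB11 of the thymus having none. Of the 6 ATPase genes, 4 had no peak in either list, and none had a sense start peak, which 23.9% of all genes had in either list. PSMC2 and PSMC6 were the exceptions, and the PSMC6 peak of 1000 bp, at 1074 to 2073 bp past the end, also lay at the start of STYX on the same strand. Among the 3 non-ATPase base genes PSMD2 alone had peaks, and among the 3 chaperone genes PSMD10 alone. These groups are small and the counts carry no test.

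A sense start peak and a sense end peak, in either list, occurred together at 6 genes (5.05% of all genes). In a single list this held for 4 genes untreated (3.60% of all genes) and 5 treated (3.81%). Farther past the end, between 1 and 2 kb, sense peaks were present at PSMB1, PSMC6 and PSMD14 in both lists, and the treated PSMB1 peak reached within 1 kb. Peaks there at PSMA6 (750 bp, 1933 to 2682 bp) and PSMB5 (750 bp, 1665 to 2414 bp) were untreated only. Those at PSMA7 (500 bp, 1925 to 2424 bp) and PSMD8 (750 bp, 1009 to 1758 bp) were treated only. The PSMA7 peak, the single one of that gene, overlaps LSM14B, and the PSMD8 peak overlaps GGN.

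Peaks were paired between the lists where each overlapped exactly 1 of the other on the same strand, which gave 24 pairs. The borders were identical in 12 pairs (50%), against 44.3% of the 7443 such pairs in the lists as a whole. Positions lie on a grid of 250 bp, so smaller moves could not be seen. Treated peaks were wider in 8 pairs (33.3%) and narrower in 3 (12.5%), against 25.0% and 25.1% of all pairs. At the starts, 9 of 12 pairs kept their width and 8 were identical, counting the antisense pairs of PSMB3, PSMB10 and PSMD2. The only wider start pair, PSMD2, was antisense. Among sense start peaks alone, 9 were shared in each list and 7 of them had identical borders. Over all coding starts, 54.8% of sense pairs were identical, 22.5% wider and 18.4% narrower. At the ends, 4 of 8 pairs were wider in the treated list, 1 was narrower and 3 were identical, while 28.5% of sense pairs at all coding ends were wider, 35.7% narrower and 27.7% identical.

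A border moved by 500 bp or more in 4 pairs (16.7%), against 19.2% of all pairs in the lists. The PSMA5 end peak, the widest treated peak at these genes, grew from chr1:109942458-109943957 (1500 bp) to chr1:109940958-109943707 (2750 bp), its downstream border moving by 1500 bp to within 1 kb of the start of SORT1 on the same strand. The PSMB1 peak past the end, the widest untreated one, went from chr6:170840526-170842525 (2000 bp) to chr6:170840776-170843275 (2500 bp), with its upstream border moving by -750 bp. The PSMD13 end peak shortened from chr11:253251-255000 (1750 bp) to chr11:253251-254500 (1250 bp). The PSMA1 record's peak at PDE3B was 500 bp wide untreated and 1000 bp wide treated, at chr11:14665220-14665719 and chr11:14665220-14666219. With 1 list per condition, none of these moves can be set against the spread between replicates.

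**Figure D4:**
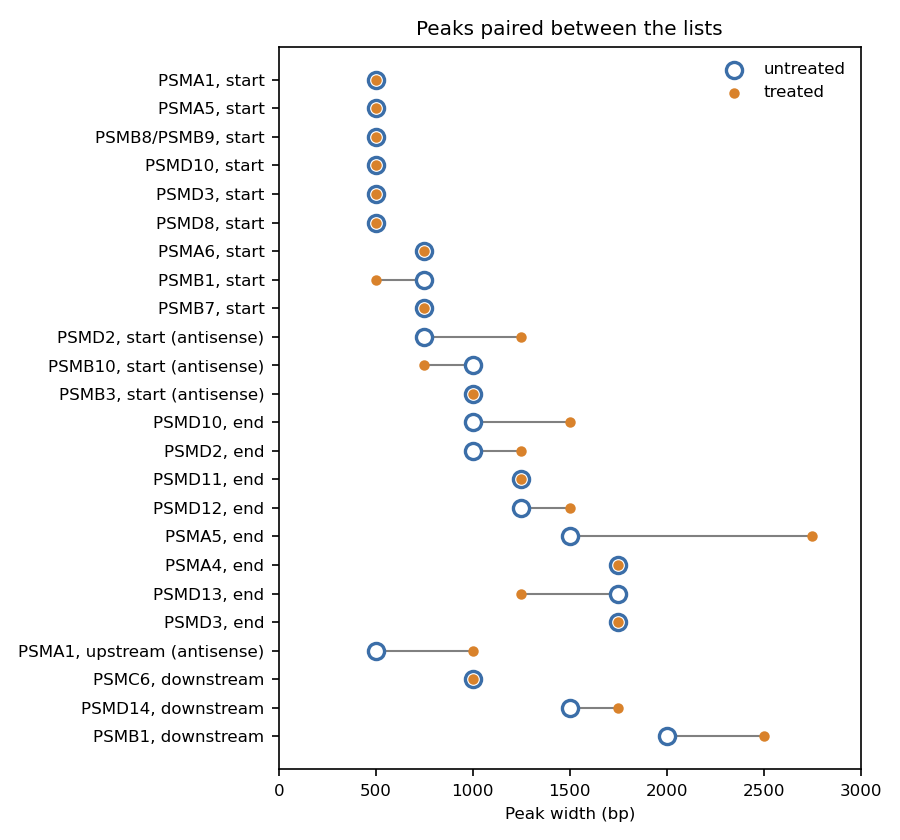
Width (bp) of each of the 24 peaks paired 1 to 1 between the lists, with an open blue circle for the untreated and a filled orange point for the treated list, joined by a line. Starts sit at 500 to 1250 bp and mostly coincide, and 4 of the 8 end pairs are wider in the treated list. PSMA5 moves from 1500 to 2750 bp.

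The genes for the ribosomal proteins, another large family expressed in nearly all cells, were set beside the members. Among 86 cytosolic ribosomal protein genes, 75.6% had a sense start peak in each list, and 77.9% and 75.6% had a sense end peak, above the upper bounds of the members' intervals of 42.8% and 40.2%. Among 78 mitochondrial ribosomal protein genes, 33.3% and 35.9% had a sense start peak and 30.8% and 24.4% a sense end peak. These lie within the members' intervals.

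Of 20 other genes of the pathway, 16 had an untreated peak and 12 a treated peak, the latter all among the former, against 41.7% and 43.8% of all genes. A sense start peak was present at 9 and 6 of them, against 18.5% and 20.5%, and a sense end peak at 4 in each list, against 9.84% and 9.60%. UBB and RPS27A, which encode ubiquitin, had a sense start and a sense end peak in both lists, with widths between 500 and 2250 bp. RPS27A was also counted among the cytosolic ribosomal protein genes above. UBB is short: both of its 2 peaks in each list counted at the end, and 1 of them also at the start. PSME2, a subunit of the interferon-inducible activator, PSMG3, an assembly chaperone, SEM1, a small lid subunit, and ECPAS, an adaptor of the proteasome, had a peak in the untreated list alone, as did 5.42% of all genes. PSMF1, PSMG4, ADRM1 and USP14 had none. UBA1, the ubiquitin-activating enzyme, and UCHL5, a deubiquitinase of the regulatory particle, had 3 untreated and 2 treated peaks each, with the sense start peak in the untreated list alone. Others had more treated peaks: DDI2, a protease that activates NFE2L1, had 1 untreated and 4 treated peaks with a sense start peak in the treated list alone, PSMG2, an assembly chaperone, had 1 and 2 with a sense end peak in the treated list alone, and PSME3, a nuclear activator subunit, had 1 and 2. NFE2L1 itself had 1 peak of 1000 bp in the untreated list and a peak in the treated list, neither of them sense at its start.

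The promoters, taken as 250 bases before to 50 after the canonical start in GRCh37, were searched on both strands for 3 motifs, each counted on its own, so that matches may overlap. The antioxidant response core TGACNNNGC, which NFE2L1 is known to bind, was in 10 of 40 member promoters (25.0%) and in 14.0% of 19874 coding promoters. Of the 13 members with a sense start peak in either list it was in 1, PSMD3, and of the 27 without in 9. CCAAT was in 47.5% of member promoters and 36% of all, and GGGCGG, the core of the GC box, in 65.0% and 61.4%. CCAAT was held by 6 of the 13 and 13 of the 27, and GGGCGG by 8 and 18. Median promoter GC content was 59.3% (49.3% to 72.3%) for members with a sense start peak, 61.3% (44.7% to 80.7%) for those without, and 63.7% over all coding promoters. The ranges of the members with and without a start peak overlapped almost wholly.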

How the data were processed

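The deposited files were 1 list of R-loop peaks per condition, each with 4 columns (chromosome, start, end, strand). Per the labels and the study's methods, the authors used Trim Galore for trimming, Bowtie2 for alignment to hg19 and Picard for duplicates, and called R-loops from 2 replicates per condition. Widths are nearly all multiples of 250 bp, which sets the resolution. Each list is attached to the first replicate and was taken to stand for both. The reads of the samples and of the inputs were not analysed here.

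Peaks were set against GENCODE release 44 gene records with 2 kb on either side, and against the canonical transcript's start and end within 1 kb. Overlap of 1 bp counted as shared, without regard to strand. Pairs required the same strand. Coordinates are 1-based. Members with differing lists, antisense peaks, the widest peaks or borders moved by 500 bp were given with positions. The members and lists were chosen with earlier results of these data known. Some genes of the pathway list are not reported here. Python 3.11.15, numpy 2.4.6, scipy 1.17.1, pysam 0.24.0, samtools 1.23.1 and matplotlib 3.10.9 were used. The overlap code was tested on simulated peaks and checked against bedtools. No test of treatment was made, as there is 1 list per condition.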

Additional observations from a re-analysis of the deposited data

How the results depend on the processing

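Of 109 recomputed values, 85 stayed within 1.5 times the reported count and 24 moved. Without the 2 kb flank, genes with a peak in both lists numbered 13. Untreated peaks then numbered 18, with 13 shared, 16 sense and 4 at ends, and treated peaks 19, with 14 shared, 14 sense and 3 at ends. With a flank of 5 kb, 4 genes had a treated peak only. With peaks of at least 750 bp, untreated peaks numbered 21, with 16 shared, 18 sense and 6 at starts, treated peaks 19, with 16 shared, 15 sense and 5 at starts, and 7 peaks had identical borders. In an alternative chosen after seeing the data, that width left 3 untreated and 2 treated members with a sense start peak (9.0% and 10.2% of all genes) and 9 and 10 with a sense end peak (8.61% and 8.39%). Within 500 bp of an end there were 6 untreated peaks, at 6 members, and within 2 kb 18. The moves follow from fewer or more peaks being counted. The canonical span, leaving out PSMC3IP, the gene's strand alone, and stricter sharing moved none of the counts over 1.5 times.

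No paired analysis was possible because both replicates of a condition went into 1 list, which also left no replicate to leave out. Depth is unknown, and a gene without a peak is one without a call by the authors.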
